A study of Mus musculus with 6 samples.

Results

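The 10 genes described here encode the co-activators YAP (Yap1) and TAZ (Wwtr1), their DNA-binding partners Tead1, Tead2 and Tead3, the inhibitory kinase gene Lats2, the junction-associated regulators Amotl2 and Ajuba, and the target genes Ankrd1 and Axl. They were chosen by name, as symbols of genome build GRCm38 matched to Ensembl identifiers, from the 55487 genes in the tables, and all 10 passed the filter on low counts that left 16603 genes. The cells were untreated mouse embryonic fibroblasts (MEFs), connective-tissue cells cultured from embryos, from a study whose title concerns mTORC1, the chemokine CCL24 and granulomas in sarcoidosis. RNA-seq was made from 3 knockout (KO) and 3 wild-type (WT) libraries, 1 of each genotype at passages 2, 3 and 4, a passage being one round of detaching and replating. The labels do not name the deleted gene, the strain, the age of the embryos or the number of embryos and cultures. Genotypes were read from the library titles, and the separate genotype tag gives WT for 2 of the 3 KO-titled libraries.

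Library totals ran from 27361852 to 67760880 expected counts in KO and from 24853121 to 42335628 in WT. The female-specific RNA Xist stood at 417 to 567 CPM (library-scaled counts, by TMM) in KO and 0.118 to 0.300 CPM in WT, while 4 Y-linked genes summed to 0 to 1.40 CPM in KO and 168 to 188 CPM in WT. Genotype and sex therefore cannot be told apart in any comparison of KO with WT. All 12 fibroblast markers were measured in every library, with summed levels of 32432 to 37097 CPM in KO and 56431 to 67100 CPM in WT. Col1a1 was the largest part of the sum, at 10188 to 12266 CPM in KO and 16916 to 23833 CPM in WT. Of these markers 5 fell in KO (Col1a1, Col1a2, Col3a1, Dcn and Pdgfra), and Lum and Postn were also called as lower with passage as a block. Over all tested genes, 1.55% were called as lower with genotype alone and 6.37% with the block. Vim went the other way without a call, at 2103 to 2352 CPM in KO and 1870 to 2082 CPM in WT. Nothing says that the 3 libraries of a genotype were separate cultures, and p-values measure only the spread between these libraries.

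YAP and TAZ are transcriptional co-activators at the end of the Hippo pathway. The MST kinases (Stk3, Stk4) with the scaffold Sav1 activate the LATS kinases and their MOB1 partners, and LATS phosphorylation holds YAP and TAZ in the cytoplasm. When that brake is low, as in spread fibroblasts under tension, YAP and TAZ enter the nucleus, bind TEAD factors and raise transcription of genes such as Ankrd1, Ccn1 and Ccn2, and of Lats2 and Amotl2, which feed back to restrain them. Much of this control acts on the proteins, which RNA-seq does not measure.

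TEAD factors recognise the core CATTCC, which reads GGAATG on the other strand. RefSeq promoter windows of GRCm38.p6, from 250 bases before to 50 bases after a transcript start, were searched for it on both strands. Entries were found for 9 of the 10 genes (none was matched for Tead1), and 8 of the 9 held the core, against 14.7% of the 32851 windows of all genes and 14.7% of the tested genes that had an entry. For Tead2 these letters were not in its window. The AP-1 core TGANTCA was in the windows of 0 of the 9 genes (6.5% of tested genes), and the CArG box of serum response factor was in 0 of 9 (1.6% of tested genes). A match describes the letters and does not show that a factor binds there. The promoter of Ankrd1, the member with the largest difference between genotypes, held 2 matches. They are shown in capitals in the 250 bases before its RefSeq start, chr19:36119845-36120094 on the minus strand, read 5′ to 3′.
Ankrd1: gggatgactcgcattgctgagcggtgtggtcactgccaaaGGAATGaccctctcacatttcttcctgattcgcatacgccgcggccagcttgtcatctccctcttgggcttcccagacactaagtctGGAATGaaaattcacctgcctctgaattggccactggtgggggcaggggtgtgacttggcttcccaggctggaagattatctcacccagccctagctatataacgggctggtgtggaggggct

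In Ankrd1 the matches began 210 and 123 bases before the RefSeq start. The Ankrd1 stretch and the Amotl2 stretch below lie inside the genes by the GENCODE coordinates given further on. In both genes the RefSeq start used here lies downstream of the GENCODE gene start. The stretches of 30 bases around the core in other members, again with the core in capitals and read along the gene's own strand, show how the letters next to it differ between genes. They lie at chr9:8004720-8004749 on the minus strand for Yap1, chr3:57576029-57576058 on the minus strand for Wwtr1, chr9:102717727-102717756 on the plus strand for Amotl2, and chr7:25788949-25788978 on the minus strand for Axl. Ajuba held 2 matches, of which the one at chr14:54577830-54577859 on the minus strand is shown. Tead3, not shown, held the core in 2 of its 3 windows, with matches 182, 123 and 114 bases before their starts.
Yap1: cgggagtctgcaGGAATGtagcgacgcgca
Wwtr1: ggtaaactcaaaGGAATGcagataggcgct
Amotl2: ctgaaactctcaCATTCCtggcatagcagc
Axl: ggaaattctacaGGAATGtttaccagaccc
Ajuba: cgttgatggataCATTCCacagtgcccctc

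The distance from the RefSeq start ranged from 65 bases in Amotl2 to 233 bases in Axl. For Axl and Ajuba, the bases just after that start were not found in a GENCODE transcript of the gene, so their distances are uncertain. Of the 6 genes shown, Ankrd1 alone was called between genotypes in the tests described next, and Tead3 was not called in them. Among the wider lists described further on, the core was in the windows of 7 of the 15 YAP and TEAD targets that had an entry, and 4 of these 7 were Ankrd1, Axl, Lats2 and Amotl2 themselves. It was in 3 of 10 Hippo kinases and scaffolds and in 6 of 15 junction and polarity regulators. Among the genes that held it were Lats2 in the former list and Amotl2 and Ajuba in the latter.

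Levels of different genes were compared per transcript length, in TPM (the length-scaled transcript abundance). As log2(TPM + 1), the median change of all tested genes, KO over WT, was 0.08, against -0.01 with scaled counts. TPM values thus serve to rank genes within a genotype, and each gene is compared between genotypes in CPM below. Axl, a receptor tyrosine kinase, had the highest level of the 10 in both genotypes, with 584 ± 53.6 TPM in KO and 444 ± 42.0 TPM in WT (SD, n = 3 each). Amotl2, an angiomotin-like scaffold that binds YAP, was next, with 223 ± 16.5 TPM in KO and 248 ± 34.2 TPM in WT. Below them came Tead1 at 168 ± 24.0 TPM in KO and 139 ± 13.7 TPM in WT, then Yap1 at 130 ± 19.2 TPM in KO and 117 ± 12.1 TPM in WT, and the ranges of this pair overlapped in each genotype. Ajuba, a LIM-domain protein of cell junctions that binds LATS kinases, averaged 35.1 ± 5.40 TPM in KO and 27.7 ± 2.10 TPM in WT. Ankrd1 was the gene whose place in the order differed most, the sixth in KO at 77.3 ± 8.48 TPM and the last in WT at 23.9 ± 5.25 TPM. In KO its range overlapped those of Tead2 above it and Wwtr1 below it, and in WT it overlapped that of Ajuba. Of the 9 pairs of neighbours in the order, 5 overlapped in KO and 3 in WT.

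**Figure D1:**
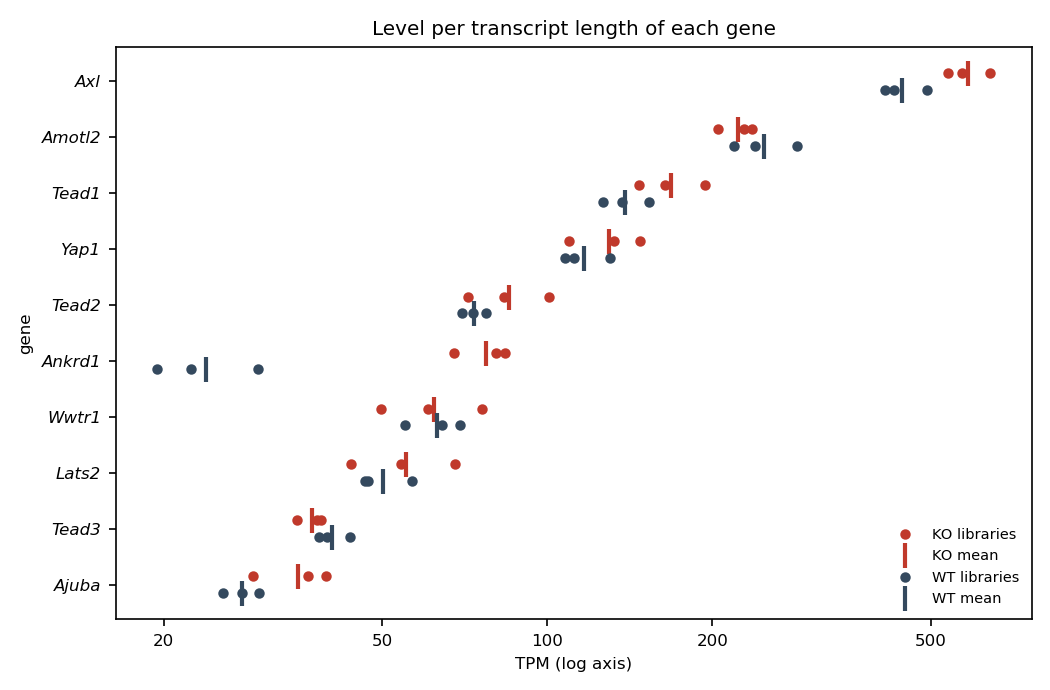
Level of each of the 10 genes in TPM on a log axis, with 1 point per library, KO libraries above WT libraries, and a vertical bar at the mean of each genotype. Axl is the most abundant in both genotypes, and Ankrd1 lies at 67.7 to 83.7 TPM in KO and 19.5 to 29.7 TPM in WT, while the points of most other genes lie close together.

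Ankrd1 (ENSMUSG00000024803, chromosome 19, 36111961 to 36120099, minus strand) encodes an ankyrin-repeat protein of the muscle sarcomere and nucleus and is a standard readout of YAP activity. It had 75.4, 82.9 and 75.3 CPM in KO at passages 2, 3 and 4, against 22.2, 23.2 and 33.2 CPM in WT. The 3 KO libraries lay in a narrow band well above the WT libraries, and the WT library of passage 4 was the highest of its genotype. These values rest on 2090, 5777 and 2367 counts in KO and 939, 925 and 801 counts in WT. Ankrd1 was higher in KO, by a log2 change of 1.58 ± 0.16 (SE, 95% interval 1.19 to 1.96, edgeR quasi-likelihood test with Benjamini-Hochberg adjustment over all genes, adjusted p = 0.00757, higher in 3 of 3 passages). It was the only 1 of the 10 genes called between genotypes, where 2.48% of all tested genes were called and 0.934% were called as higher in KO. Within passages 2, 3 and 4 its log2 difference was 1.76, 1.84 and 1.18.

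The Ankrd1 call did not survive the loss of some libraries, although the size of the change moved little. Without the KO library of passage 3 the log2 change was 1.53 (adjusted p = 0.0545), and without both passage 2 libraries it was 1.49 (adjusted p = 0.0605). Without the WT library of passage 3 the adjusted p was 0.0704. Ankrd1 is also a muscle gene, and the 13 muscle markers summed to 55.1 to 152 CPM in KO and 25.3 to 61.2 CPM in WT. Of the 9 tested muscle markers 1 rose in KO, the skeletal actin gene Acta1, and 8 were not called, with a median log2 change of 0.39. Over all tested genes 0.934% were called as higher, and the median was -0.01. Acta1 had 30.6, 86.5 and 33.6 CPM in KO and 6.10, 11.2 and 8.20 CPM in WT (log2 2.57, edgeR adjusted p = 0.0391). The intermediate filament gene Des, the other large part of the sum, had 85.8, 60.7 and 17.1 CPM in KO and 43.0, 39.2 and 14.4 CPM in WT. With passage as a block, Des, Acta1 and Nppb were called as higher in KO, where 4.69% of all tested genes were. Nppb rested on 13, 27 and 15 counts in KO and 7, 5 and 3 counts in WT. Myf5, which defines the muscle lineage, had 0 counts in all 6 libraries, and Myod1 had at most 6 counts in a KO library and at most 10 in a WT library. Other muscle markers were present at passage 2. Myog had 5 counts in KO and 23 in WT there, Myh3 had 63 and 113, Actc1 had 33 and 59, and Ttn had 134 and 148. Des, Myh3, Actc1 and Ttn were called as lower with passage by edgeR, where 3.48% of all tested genes were. The part of muscle transcripts in the Ankrd1 difference was not tested. In these bulk samples, fewer cells of a type and less RNA per cell cannot be told apart.

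**Figure D2:**
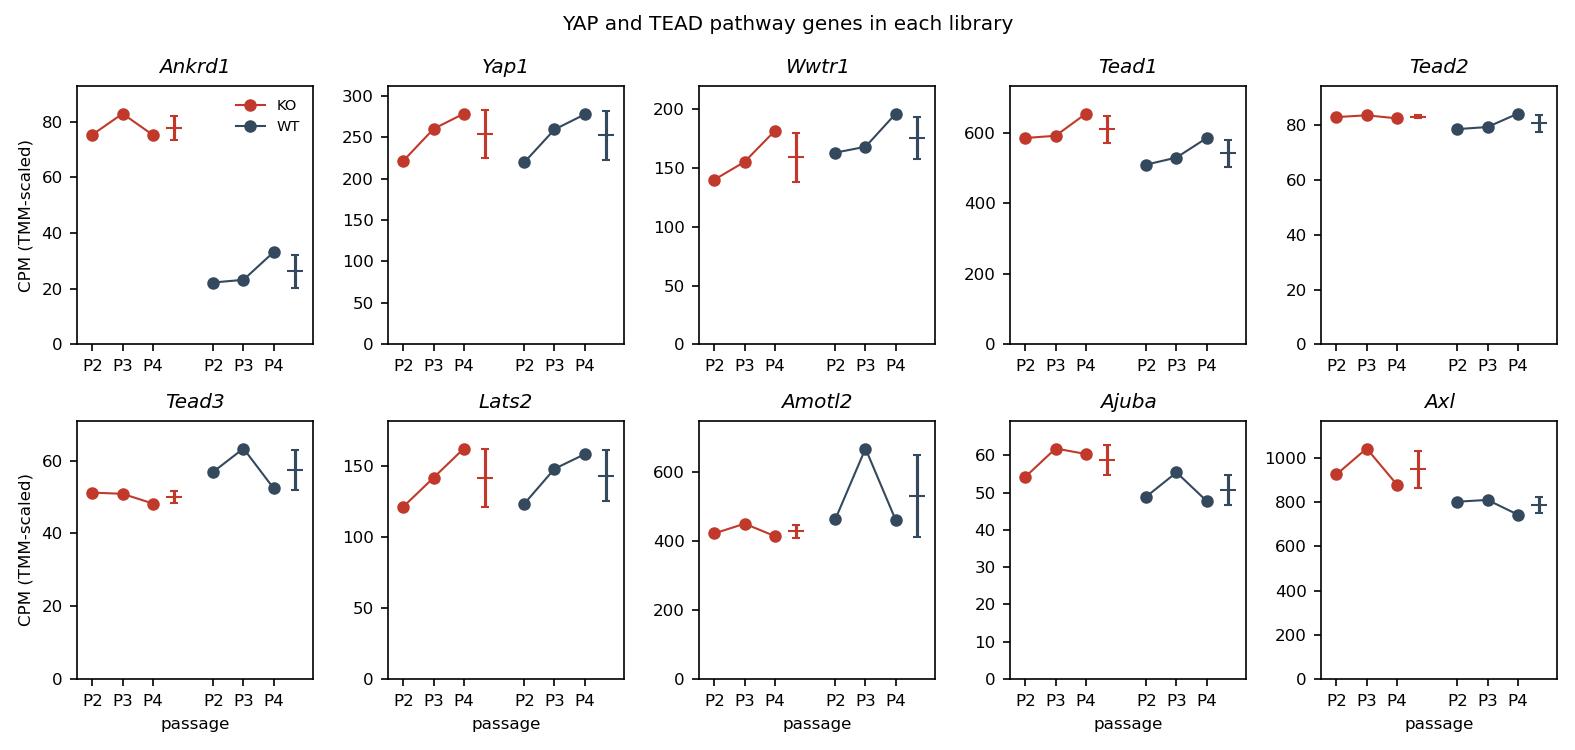
CPM of each of the 10 genes in each library, KO libraries on the left and WT libraries on the right of each panel, in order of passage (P2 to P4), with a line joining the 3 libraries of a genotype and the mean ± SD beside them. Ankrd1 separates the genotypes, whereas Yap1 and Lats2 have nearly the same values in KO and WT at each passage, and the WT library of passage 3 stands above the others for Amotl2.

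Neither co-activator differed detectably in mRNA level. Yap1 (ENSMUSG00000053110, chromosome 9, 7931999 to 8004596) had 221, 260 and 278 CPM in KO, against 219, 259 and 277 CPM in WT. The paired values almost coincide at each passage, and the log2 change was 0.01 (95% interval -0.30 to 0.31, edgeR adjusted p = 0.982). Wwtr1 (ENSMUSG00000027803, chromosome 3, 57455649 to 57575910), which encodes TAZ, had 140, 155 and 182 CPM in KO and 163, 168 and 196 CPM in WT. Its KO value was the lower one at each passage, but the ranges overlapped and the change was not called (log2 -0.14, 95% interval -0.44 to 0.15, adjusted p = 0.567). Per length, Yap1 exceeded Wwtr1 in every library, with a ratio of 2.11 ± 0.146 in KO and 1.86 ± 0.107 in WT. The ratio was higher in KO at each of the 3 passages. Without pairing by passage, the difference in ratio was not distinguishable from the spread between libraries (2-sided exact permutation p = 0.2, adjusted p = 0.4 over 8 ratios and shares, where 3 against 3 libraries cannot give less than p = 0.1).

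Of the DNA-binding partners, Tead1 (ENSMUSG00000055320, chromosome 7, 112679318 to 112906807) carried most of the family's transcripts. It had 585, 591 and 654 CPM in KO and 509, 530 and 585 CPM in WT, so that the lowest KO library only just exceeded the highest WT library, and its log2 change of 0.17 was not called (95% interval -0.07 to 0.42, edgeR adjusted p = 0.391). Tead2 (ENSMUSG00000030796, chromosome 7, 45215753 to 45233644), a form typical of embryonic cells, had 83.0, 83.7 and 82.6 CPM in KO and 78.6, 79.4 and 84.3 CPM in WT. It varied least of the 3, and its log2 change was 0.04 (95% interval -0.15 to 0.23, adjusted p = 0.821). Tead3 (ENSMUSG00000002249, chromosome 17, 28331671 to 28350817) had 51.2, 50.9 and 48.2 CPM in KO and 56.9, 63.3 and 52.4 CPM in WT. All KO values of Tead3 lay below all WT values, with a log2 change of -0.20 (95% interval -0.44 to 0.04, adjusted p = 0.31).

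The fourth family member, Tead4 (chromosome 6, 128224288 to 128300823), is not among the 10 and was scarce, with 2.78, 3.83 and 3.08 CPM in KO and 1.40, 1.75 and 1.45 CPM in WT. Its log2 change of 1.08 was not called with genotype alone (edgeR adjusted p = 0.0676), and it was called as higher in KO with passage as a block (log2 1.07, adjusted p = 0.0244) and by DESeq2 without it (adjusted p = 0.00385). As shares of the TPM of all 4 TEAD genes, Tead1 held 57.4% ± 0.565 in KO and 54.6% ± 2.68 in WT, and Tead2 held 29.0% ± 0.991 in KO and 29.0% ± 1.24 in WT. By passage, the Tead3 share was 13.7%, 13.4% and 11.3% in KO, against 16.8%, 16.8% and 14.4% in WT. Tead4 held 0.817% ± 0.108 in KO and 0.416% ± 0.0677 in WT (SD, n = 3 each). The shares of Tead3 and Tead4 did not overlap between genotypes and gave the smallest p the design allows (2-sided exact permutation p = 0.1, adjusted p = 0.267).

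Among the TEAD cofactors outside the 10, Vgll3, a vestigial-like competitor for TEAD binding, was abundant at 356 ± 26.0 CPM in KO and 292 ± 19.6 CPM in WT (log2 0.29, edgeR adjusted p = 0.172). Vgll1 had 0 counts in every library, which allows up to 0.0431 to 0.124 CPM by counting error alone, and Vgll2 had at most 1 count in a library. Of the 8 tested genes of the list of TEAD factors and cofactors, 0 were called between genotypes by edgeR (3 at an unadjusted p under 0.05, 1 by DESeq2 and 0 by limma-voom). Of all 16603 tested genes, edgeR called 412, 3543 had an unadjusted p under 0.05, and DESeq2 called 1661 and limma-voom 456. The median log2 change of the list was 0.02, and that of all tested genes was -0.01. This list includes Yap1, Wwtr1, Tead1, Tead2 and Tead3, so its count is not separate from theirs.

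Lats2 (ENSMUSG00000021959, chromosome 14, 57689662 to 57758388) encodes one of the kinases that inhibit YAP and TAZ and is itself a YAP target. It had 121, 142 and 162 CPM in KO and 123, 148 and 158 CPM in WT at passages 2, 3 and 4. The genotypes overlapped fully, with a log2 change of -0.01 (95% interval -0.34 to 0.32, edgeR adjusted p = 0.969) whose sign depended on the scaling, being 0.01 with effective lengths and 0.12 on the log2(TPM + 1) scale. Lats2 shared 40.8% of its 64-base words with Gm49361, an annotated gene that overlaps it on the same strand, so its count is uncertain. Gm49361 held 168, 93 and 69 counts in KO and 0, 141 and 318 counts in WT, and with its counts added the log2 change of Lats2 was -0.04 (adjusted p = 0.919).

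Lats1, the second kinase of the pair, had 143, 134 and 147 CPM in KO and 144, 128 and 141 CPM in WT (log2 0.04, 95% interval -0.18 to 0.25, edgeR adjusted p = 0.854). Per length, Lats1 was below Lats2 in all 6 libraries, with a ratio of 0.823 ± 0.122 in KO and 0.798 ± 0.138 in WT. Of the 12 kinases and scaffolds of the pathway, 0 were called between genotypes by edgeR (2 at an unadjusted p under 0.05, 1 by DESeq2 and 0 by limma-voom), and their median log2 change was 0.05. Of all 16603 tested genes, edgeR called 412, 3543 had an unadjusted p under 0.05, and DESeq2 called 1661 and limma-voom 456. The list of kinases and scaffolds, which includes Lats2, was also at 0 calls with passage as a block, where 11.1% of all tested genes were called.

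Amotl2 (ENSMUSG00000032531, chromosome 9, 102716672 to 102733418) had 421, 449 and 413 CPM in KO and 462, 667 and 460 CPM in WT. The 3 KO libraries lay below the WT libraries, and the WT library of passage 3 stood far above the other two of its genotype. The log2 change of -0.31 was not called (95% interval -0.68 to 0.06, edgeR adjusted p = 0.318), and without that library it was -0.10 (adjusted p = 0.736). Ajuba (ENSMUSG00000022178, chromosome 14, 54567472 to 54577558) had 54.2, 61.8 and 60.3 CPM in KO and 48.9, 55.4 and 47.7 CPM in WT. KO was the higher of the pair at each passage, but the ranges overlapped and the log2 change of 0.21 was not called (95% interval -0.03 to 0.46, adjusted p = 0.286).

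Of the 20 junction and polarity regulators, 1 fell, 0 rose and 19 were not called between genotypes by edgeR, where 2.48% of all tested genes were called, and their median log2 change was 0.07. At an unadjusted p under 0.05 there were 3, and DESeq2 called 2 of the 20 and limma-voom 1. Amotl2 and Ajuba are among the 20. Of all 16603 tested genes, 3543 had an unadjusted p under 0.05, and DESeq2 called 1661 and limma-voom 456. The gene that fell was Dchs1, a giant protocadherin that pairs with Fat4 upstream of the pathway, with 92.1, 67.2 and 61.6 CPM in KO and 160, 189 and 122 CPM in WT (log2 -1.10 ± 0.20 SE, edgeR adjusted p = 0.042, lower in 3 of 3 passages). Its call was lost without the KO library of passage 3 or 4 or the WT library of passage 2 or 3, with adjusted p of 0.229, 0.0897, 0.106 and 0.176. It was also lost without both passage 2 libraries (0.0924) and with the stricter filter (0.0502). Part of its exonic sequence overlaps an antisense gene, and the strand setting is not known. With passage as a block, Dchs1 was also called (adjusted p = 0.00667) and Rassf1, a scaffold that binds the MST kinases, was called as higher in KO (log2 0.39, adjusted p = 0.037), as it was by DESeq2 without the block (adjusted p = 0.00425). Of the 5845 exonic bases of Rassf1, 2496 overlap the antisense gene Gm9917, so its count is uncertain.

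Axl (ENSMUSG00000002602, chromosome 7, 25757273 to 25788705), a YAP target in many cell types, had 925, 1042 and 879 CPM in KO and 802, 810 and 743 CPM in WT. All KO libraries were above all WT libraries, and the KO library of passage 3 was the highest. The log2 change was 0.27 (95% interval 0.02 to 0.53), which was not called after adjustment over all genes (edgeR adjusted p = 0.203, and 0.0998 with passage as a block). The same receptor family includes Tyro3 and Mertk, and Axl made up 98.1% ± 0.0596 of the TPM of the 3 receptors in KO and 97.3% ± 0.414 in WT (2-sided exact permutation p = 0.1, the smallest possible, adjusted p = 0.267).

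Of the 10 genes, 5 had CPM values that did not overlap between the genotypes, Ankrd1, Tead1 and Axl being higher in KO and Tead3 and Amotl2 lower. Over all tested genes 27.2% did not overlap. The log2 changes of the 9 genes other than Ankrd1 ran from -0.31 to 0.27, with 95% intervals that reached no further than -0.68 and 0.53. Within these bounds the 9 genes are not shown to be equal in KO and WT.

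**Figure D3:**
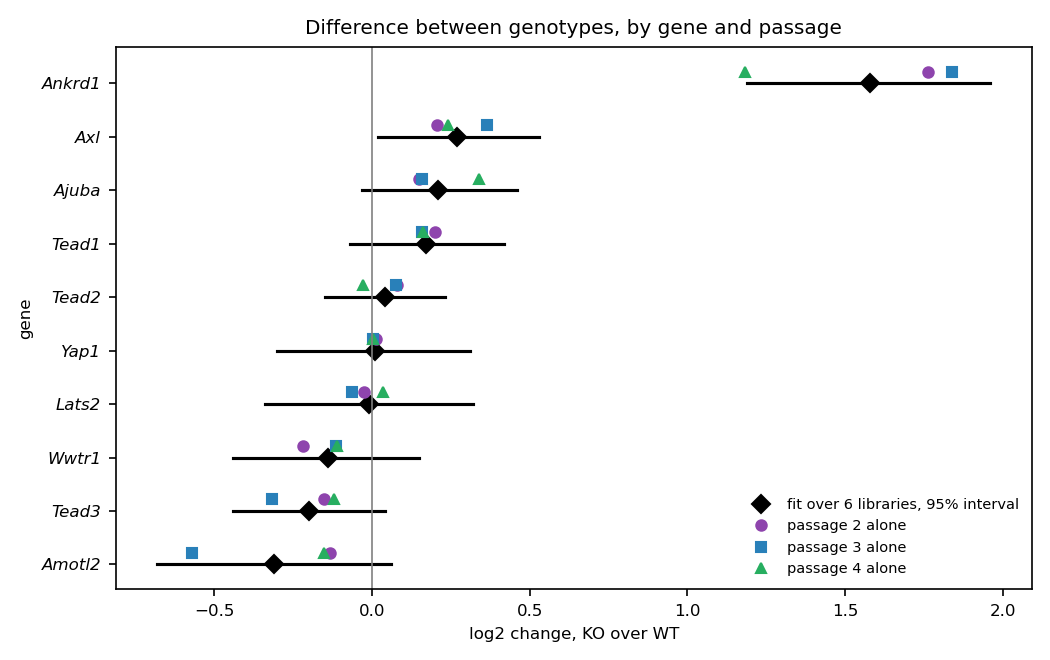
Log2 change of each gene in KO over WT, with the fitted value and its 95% interval (diamonds and bars) and the difference within each passage (coloured symbols). Ankrd1 lies at 1.58 with an interval from 1.19 to 1.96, and the fitted values of the other 9 genes lie between -0.31 and 0.27.

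Across passages, Yap1, Wwtr1, Tead1 and Lats2 had a higher CPM at each passage than at the one before in both genotypes, a pattern found in 9.47% of all tested genes. The opposite course, lower at each passage in both genotypes, was found in 0 of the 10 genes and in 8.91% of all tested genes. In the fit of a linear passage slope beside genotype, 0 of the 10 genes were called by edgeR, where 6.25% of all tested genes were called, 2.78% as higher and 3.48% as lower with passage (3 of the 10 at an unadjusted p under 0.05, 2 by DESeq2 and 0 by limma-voom). Of all 16603 tested genes, 3516 had an unadjusted passage p under 0.05, and DESeq2 called 1709 and limma-voom 884. Among the 10 genes Lats2 came closest to an edgeR call, with a log2 change per passage of 0.19 ± 0.05 (SE, 95% interval 0.08 to 0.31, adjusted p = 0.0601). With the counts of Gm49361 added it was 0.21 (adjusted p = 0.0468), and without the WT library of passage 3 it was 0.20 (adjusted p = 0.0417). Yap1 had 0.17 per passage (95% interval 0.05 to 0.29, adjusted p = 0.108) and Wwtr1 had 0.16 (95% interval 0.04 to 0.28, adjusted p = 0.114). From passage 2 to passage 4 the log2 difference of Yap1 was 0.33 in KO and 0.34 in WT, and that of Lats2 was 0.42 in KO and 0.36 in WT. Tead1 had 0.09 per passage (adjusted p = 0.374). The slopes of Tead2, Tead3, Amotl2, Ajuba and Axl lay between -0.05 and 0.03.

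Ankrd1 had a log2 change from passage 2 to passage 4 of -0.0021 in KO and 0.58 in WT. The slope difference, KO minus WT, was -0.29 per passage (95% interval -0.61 to 0.03, edgeR adjusted p = 0.741), so the flat course in KO and the higher last value in WT are not shown to differ. No slope difference was called by edgeR for any of the 10 genes, where 0.0% of all tested genes were called. At an unadjusted p under 0.05 there were 0 of the 10 and 1137 of all genes. DESeq2 called 0 of the 10 and 82 of all 16603 tested genes, and limma-voom called 0 of either.

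**Figure D4:**
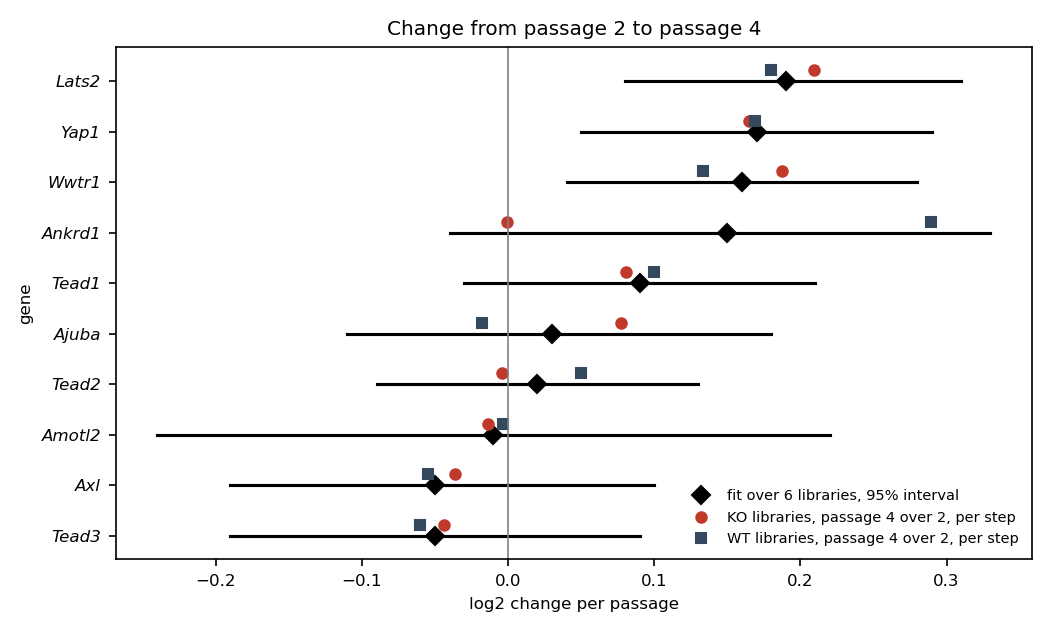
Log2 change per passage of each gene, with the fitted slope and its 95% interval (diamonds and bars) and, for each genotype, the passage 4 over passage 2 change divided by its 2 steps (circles for KO, squares for WT). Lats2, Yap1 and Wwtr1 have the highest slopes, at 0.19, 0.17 and 0.16, with both genotypes on the same side, and Ankrd1 is near 0 in KO and at 0.29 in WT.

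The wider list of YAP and TEAD targets held genes called in both directions. The list, a set of 22 genes that follow YAP and TAZ in human tumours and include Ankrd1, Axl, Lats2 and Amotl2, had 2 members that rose in KO, 1 that fell and 19 that were not called by edgeR, where 0.934% of all tested genes were called as higher and 1.55% as lower. The median log2 change was 0.14 for the 22 targets and -0.01 for all tested genes. Beside Ankrd1, Fjx1, a Golgi kinase gene of the Fat and Dachsous system, rose, with 12.6, 10.8 and 9.98 CPM in KO and 6.01, 5.64 and 6.58 CPM in WT (log2 0.87 ± 0.15 SE, edgeR adjusted p = 0.0336). Its call was lost without any 1 library other than the WT library of passage 4, with adjusted p from 0.0592 to 0.19, and without both passage 2 libraries (0.179). Ccdc80, a secreted matrix-binding protein gene, fell to 289, 283 and 300 CPM in KO, against 521, 693 and 543 CPM in WT (log2 -1.01 ± 0.13 SE, adjusted p = 0.0155). Leaving out the KO library of passage 3 gave Ccdc80 an adjusted p of 0.104, and leaving out both passage 2 libraries gave 0.0734. Both changes had the same sign in all 3 passages.

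The CCN genes are widely used YAP readouts beside Ankrd1. Ccn1 had 940, 914 and 721 CPM in KO and 767, 953 and 848 CPM in WT, with overlapping ranges and a log2 change of 0.00 (95% interval -0.33 to 0.33, edgeR adjusted p = 0.993). Ccn2 had 920, 988 and 1031 CPM in KO and 441, 703 and 749 CPM in WT, with all KO libraries above all WT libraries. Its log2 change of 0.63 was not called by edgeR with genotype alone (adjusted p = 0.128). It was called as higher in KO by edgeR with passage as a block (log2 0.67, adjusted p = 0.0267), and with genotype alone by DESeq2 (log2 0.64, adjusted p = 0.025) and by limma on the log2(TPM + 1) scale (log2 0.79, adjusted p = 0.0457). Some of its exonic bases overlap an antisense gene, and the counting by strand is not given, so reads of that gene could be included.

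By edgeR with passage as a block, 7 of the 22 targets were called as higher and 3 as lower in KO, where 11.1% of all tested genes were called, 4.69% as higher and 6.37% as lower. The additional genes that were higher were Ccn2, Crim1, Nuak2, Foxf2 and Dock5, with blocked log2 changes of 0.67, 0.69, 0.89, 0.73 and 0.36. Those that were lower were Igfbp3, which encodes a carrier of insulin-like growth factors, and Nt5e, which encodes the ecto-nucleotidase CD73, with blocked log2 changes of -1.32 and -2.45. Nt5e had 14.8, 8.58 and 2.73 CPM in KO and 40.6, 72.7 and 20.2 CPM in WT. Their blocked adjusted p lay between 0.00389 and 0.0431, and Nuak2, Foxf2, Dock5, Igfbp3 and Nt5e were named after their values were seen. Without the block, DESeq2 called 8 of the 22 targets, Ccn2, Crim1, Nuak2, Igfbp3 and Nt5e among them, and 1661 of all 16603 tested genes. The blocked calls of Axl, Lats2 and Amotl2 were the same as without it, none being called.

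**Figure D5:**
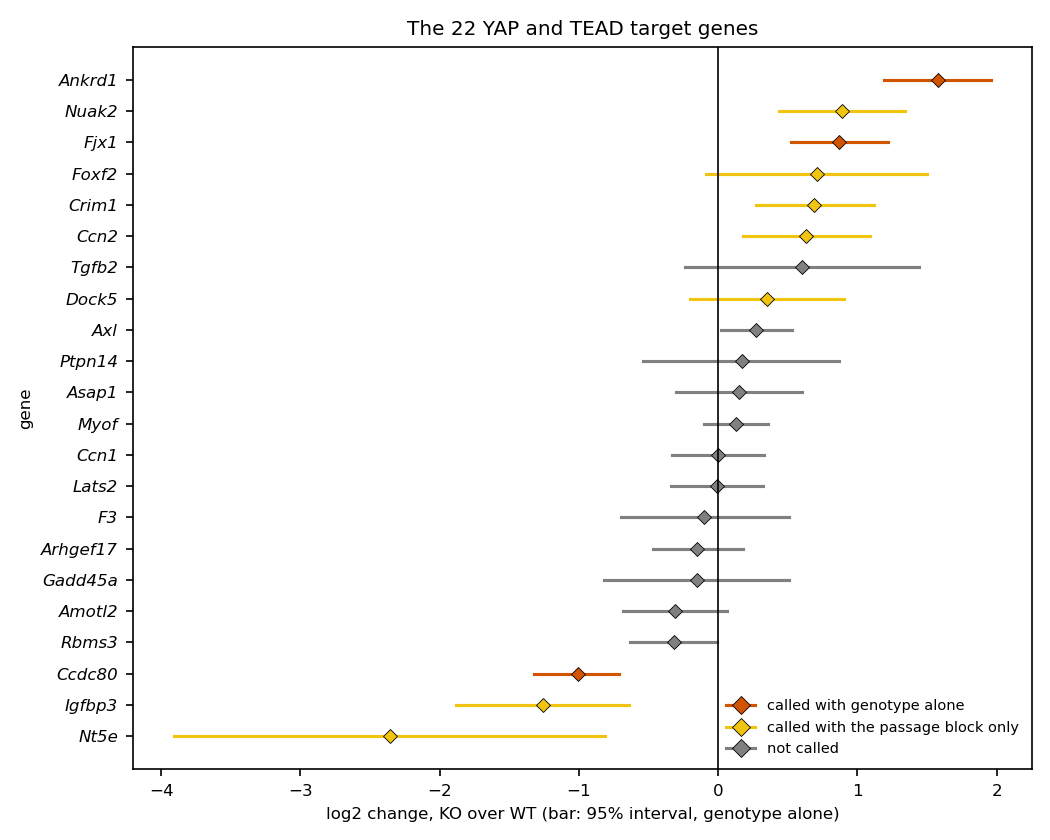
Log2 change in KO over WT of the 22 YAP and TEAD target genes with 95% intervals from the fit with genotype alone, coloured by whether the gene was called in that fit, only with passage as a block, or in neither. Ankrd1 is at the top with 1.58, the middle of the list lies near 0, and Ccdc80, Igfbp3 and Nt5e lie at the bottom with -1.01, -1.26 and -2.36.

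By passage, 3 of the 22 targets rose, 0 fell and 19 were not called by edgeR, where 2.78% of all tested genes were called as higher and 3.48% as lower, and their median log2 change per passage was 0.04. Markers of other cell types fell by passage in the same fit, in 5 of 10 endothelial, 4 of 9 muscle and 3 of 7 epithelial genes tested, and their part in the passage results was not tested. Ptpn14, a phosphatase that holds YAP in the cytoplasm, had 144, 174 and 254.5 CPM in KO and 123, 146 and 241 CPM in WT at passages 2, 3 and 4 (log2 0.45 ± 0.06 SE per passage, edgeR adjusted p = 0.00823). Crim1, a transmembrane protein gene that binds growth factors of the BMP group, had 143, 185 and 209 CPM in KO and 89.0, 114 and 129 CPM in WT (log2 0.27 per passage, adjusted p = 0.0241). Asap1, a GTPase-activating protein gene of focal adhesions, had 137, 167 and 220 CPM in KO and 135, 152 and 186 CPM in WT (log2 0.29 per passage, adjusted p = 0.0224). These 3 genes were higher at each later passage in both genotypes. The Ptpn14 call was lost without the KO library of passage 4 (adjusted p = 0.0691) or the WT library of passage 2 (0.055). Crim1 and Asap1 each kept their call only without the WT library of passage 3, with adjusted p from 0.056 to 0.191 in the other fits that left out 1 library.

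Among Axl and its ligands and sister receptors, Gas6 rose and Mertk fell with passage. The other 3 of the 5 listed genes, Axl included, were not called by edgeR. Of all tested genes, 2.78% were called as higher and 3.48% as lower with passage. Gas6, which activates Axl, Tyro3 and Mertk, had 120, 177 and 444 CPM in KO and 173, 361 and 607 CPM in WT at passages 2, 3 and 4, and rose by a log2 change of 0.93 ± 0.08 (SE) per passage (edgeR adjusted p = 0.00163, in both genotypes). Pros1, the anticoagulant protein S and a second ligand, had 129, 104 and 100 CPM in KO and 176, 181 and 154 CPM in WT (log2 -0.62 between genotypes, adjusted p = 0.0555). With passage as a block, edgeR called Gas6 and Pros1 as lower in KO (log2 -0.67 and -0.62, adjusted p = 0.0222 and 0.0126), and DESeq2 called Pros1 without the block (adjusted p = 0.00161). With the block, 5 of 12 macrophage markers were also called as lower in KO, against 0 without it. The block raised calls over all tested genes too, with 6.37% called as lower in KO against 1.55% without it. Mertk, a receptor typical of macrophages, had 4.54, 3.04 and 1.84 CPM in KO and 6.17, 3.51 and 2.86 CPM in WT, and fell by passage (log2 -0.60 per passage, adjusted p = 0.024). Its call was lost without any 1 library other than the WT library of passage 3, with adjusted p from 0.0548 to 0.141. Macrophage markers moved with it, since 11 of 12 fell by passage and their sum was 313, 103 and 50.1 CPM in KO and 435, 240 and 67.8 CPM in WT, and their part in the Mertk result was not tested.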

How the data were processed

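Trimmomatic 0.39, RSEM and mouse build GRCm38 are named in the submitters' processing notes. Which RSEM version, annotation release and strand setting were used is not given in the sources used here. Deposited tables hold the authors' expected counts (12.1% to 15.8% of values not whole), TPM values, FPKM values and effective lengths. Of 55487 genes, 55227 (99.5%) matched GENCODE M21 and took symbols and coordinates from it.

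Expected counts were rounded, filtered (minimum count 10, by genotype), scaled by TMM and tested on all 16603 remaining genes in edgeR 4.0.16 (R 4.3.3) by its quasi-likelihood test, 2-sided, and a gene was called where the Benjamini-Hochberg adjusted p was below 0.05. KO was set against WT with no other term, leaving 4 residual degrees of freedom. The linear passage slope was fitted beside genotype, leaving 3, and the slope difference left 2. Alternatives used DESeq2 1.42.0, limma 3.58.1 on log2(TPM + 1) or by voom, other filters and scalings, and left out each library. Deviations from the genotype means correlated between KO and WT by 0.49, 0.14 and 0.42 at passages 2, 3 and 4, across genes. Libraries of the same passage thus shared part of their deviation, least at passage 3. The main genotype fit and the permutation tests left passage out. With passage as a block, edgeR called 1835 genes (11.1%), against 412 (2.48%) in the main fit. The fit with passage as a block is printed where it changed a call among the 10 genes and the pathway lists. Chi-square per degree of freedom between libraries of a genotype was 32.6 or more, so none is a repeat sequencing of another. These libraries also differ in passage, so the value does not show whether they came from separate cultures. The edgeR scripts were tested on simulated counts. The genotype fit recovered 7.5% of 1.5-fold, 50.7% of 2-fold and 86.4% of 4-fold changes, with 7 false calls. The passage fit recovered 56.7%, 83.6% and 98.5% of such changes per passage, with 12 false calls. A gene that was not called may therefore still differ.

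The members and lists were chosen with earlier results of these data known. Named genes are the 10 members, list genes called by genotype or passage (8 genes), Tead4, Lats1, Ccn1 and Ccn2, and for Ankrd1 and Axl the 5 protein-coding genes with the nearest profile among genes whose mean log2 CPM was 2 or more. Genes outside this rule were named after their values were seen. List counts and medians come with no set test. Limits from a count of 0 allow 3 counts and cover counting error only. Promoter sequences are from RefSeq (GRCm38.p6).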

Additional observations from a re-analysis of the deposited data

How the results depend on the processing

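The count of genes called between genotypes (412) was 1661 with DESeq2, 846 with no filter, 1835 with passage as a replicate block, 59 without both passage 2 libraries, 0 with the genotype tag (1 KO against 5 WT libraries), 48 with a minimum log2 change of 1, and 38 to 847 without 1 library. In the same order of settings where it moved, the count of the 10 genes (1, Ankrd1) was 0 without both passage 2 libraries, 0 with the tag, 0 with the minimum change and 0 to 1 without 1 library. The targets called (3 of 22) were 8 with DESeq2, 5 with no filter, 6 on the log2(TPM + 1) and 6 on the log2(TPM + 0.1) scale, 10 with the block, 1 without both passage 2 libraries, 0 with the tag, 0 with the minimum change and 0 to 3 without 1 library. The block changed no call among the 10 genes, and the listed genes whose call it changed are given beside their results. Ankrd1 kept a log2 change of 1.46 to 1.79 without 1 library and had 0.67 with the tag (adjusted p = 0.875), its adjusted p over all alternatives running from 1.23e-14 to 0.875.

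For passage, 1038 genes were 1709 with DESeq2, 2443 with no filter and 278 to 1286 without 1 library. The 10 genes went to 2 calls with DESeq2 (Yap1 and Lats2) and 0 to 1 without 1 library. The targets (3) were 8 with DESeq2, 10 with no filter, 5 for passage 4 against 2 and 0 to 4 without 1 library. Slope differences (0) were 82 with DESeq2, 289 with no filter and 2 on the log2(TPM + 1) scale. Overlapping neighbours in the order of levels in KO (5) were 3 in FPKM. Of the genotype calls, 155 were higher and 257 lower in KO, against 219 higher and 168 lower on the log2(TPM + 1) scale and 239 higher and 164 lower on the log2(TPM + 0.1) scale. The median log2 change of all genes was 0.08 and 0.10 on these scales and -0.01 in the count fit, and 0.15 for the slope difference on the log2(TPM + 1) scale. The causes were not tested.

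Signs turned only for genes that were not called in that comparison. Between genotypes, without 1 library, Yap1 ran from -0.09 to 0.10, Lats2 from -0.12 to 0.09, Ptpn14 from -0.10 to 0.51, Asap1 from -0.05 to 0.30, Lats1 from 0.00 to 0.08 and Ccn1 from -0.08 to 0.11. With the tag Yap1 had -0.23, Ajuba -0.02, Ptpn14 -0.38, Asap1 -0.33, Mertk 0.38 and Crim1 -0.02. Lats2 had 0.01 with effective lengths, 0.12 with log2(TPM + 1) and 0.13 with log2(TPM + 0.1), and Ccn1 had 0.00 by limma-voom, 0.00 with the block and -0.14 without both passage 2 libraries. Per passage, without 1 library, Tead2 ran from 0.00 to 0.04, Amotl2 from -0.13 to 0.09, Ajuba from -0.02 to 0.10, Ccdc80 from -0.06 to 0.10, Fjx1 from -0.15 to 0.03, Tead4 from -0.05 to 0.14, Lats1 from -0.02 to 0.04 and Ccn1 from -0.19 to 0.05. Amotl2 had 0.01 on both TPM scales, Tead4 -0.01 with effective lengths, and Lats1 -0.01 with no filter and -0.01 with the stricter filter.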

Other observations

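The profile of Ankrd1 over the 6 libraries was closest to that of Tfec, a transcription factor gene of the MiT family, among 10737 protein-coding genes compared. The measure was the root mean square difference of log2 CPM after centring each gene, which was 0.140 for Tfec against a median of 0.831 over all genes. Next were Wdfy1 (0.143), the MAP kinase phosphatase gene Dusp5 (0.175), the chromatin protein gene Hmga2 (0.178) and the endothelial lipase gene Lipg (0.181). Hmga2 had 460, 598 and 528 CPM in KO and 180, 202 and 282 CPM in WT at passages 2, 3 and 4, and like Ankrd1 it had its highest WT value at passage 4. All 5 were called as higher in KO, with log2 changes from 1.26 to 1.58 and edgeR adjusted p from 0.00995 to 0.0314. The likeness uses the same 6 libraries as that test, so these calls are a description.

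The profile of Axl was closest to those of Dlat (0.034), Sh3bgrl2 (0.036), Kin (0.038), Ywhah (0.039) and Stk4 (0.044), against a median of 0.240 over all genes. Stk4, one of the MST kinases at the head of the Hippo pathway, had 58.3, 63.0 and 57.4 CPM in KO and 51.5, 48.7 and 47.6 CPM in WT (log2 0.27, edgeR adjusted p = 0.147). None of these 5 genes was called between genotypes.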
